A study of Homo sapiens with 14 samples.

Results

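Phospholipids and triglycerides are assembled by enzymes of the endoplasmic reticulum (ER), and the footprints of ribosomes translating 37 such enzymes were followed here from microsomes into material bound by the ER membrane protein complex (EMC). The 37 were taken from a list of gene symbols: acyltransferases, phosphatases, CDP-diacylglycerol synthases, head-group transferases and the cytidylyl transferases that activate choline and ethanolamine. Of the 19440 symbols counted, 34 of the 37 reached the minimum of 20 counts summed over all libraries and were analysed. Nearest to that minimum were DGAT2, LPCAT1 and LPIN2 on the inside, with 119, 139 and 144 counts, and PLPP2 on the outside, with 18. AGPAT1 and MBOAT7 were listed at 0 in all 14 libraries.

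The cells were Flp-In T-REx 293 cells, a human embryonic kidney line that carries a site for inserting transgenes under a doxycycline-inducible promoter. One line made 3Flag-EMC6 in an EMC6 knockout, another made 3Flag-EMC7 and the third 3Flag-EMC10; the labels name no knockout for these. All were induced with 0.5 to 1.0 ng/mL doxycycline for 72 h and kept in cycloheximide, which halts ribosomes on their messages. Microsomes were solubilised (input) and passed over Flag beads (IP), with 2 IPs and 2 inputs for EMC6, 2 and 2 for EMC7, and 3 and 3 for EMC10. No IP from cells without a tagged subunit was analysed here, so IP is set against input alone, and every group carries an induced transgene. In the EMC7 and EMC10 lines the labels give no loss of the cells' own subunit, which can compete with the tagged one.

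As background, the EMC inserts some membrane proteins into the ER as they are made, among them ones with membrane segments of limited hydrophobicity. Ribosomes captured with a tagged subunit are used as a measure of chains near the complex. How much material the beads carry over without it was not measured here. Glycerolipid synthesis starts with acylation of glycerol 3-phosphate to lysophosphatidic acid and then phosphatidic acid. From there 1 branch activates phosphatidic acid with CTP toward phosphatidylinositol, and the other removes the phosphate to give diacylglycerol for triglyceride, phosphatidylcholine and phosphatidylethanolamine. The enzymes of these steps sit in the ER membrane in different ways: some cross it many times, some hold on by a hairpin or a single segment, and some are soluble.

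The enzymes were grouped by sequence family. The multi-pass class held 19 genes: the membrane-bound O-acyltransferases (MBOAT fold) LPCAT3, MBOAT1, MBOAT2, MBOAT7 and DGAT1, the CDP-alcohol phosphotransferases CHPT1, CEPT1, SELENOI and CDIPT, the phosphatidylserine synthases PTDSS1 and PTDSS2, the CDP-diacylglycerol synthases CDS1 and CDS2, the methyltransferase PEMT and the phosphatases PLPP1, PLPP2, PLPP3, PLPP5 and PLPP6. A class of 13 genes with hairpins, a single segment or few segments held the lysophospholipid acyltransferase (LPLAT) fold enzymes AGPAT1 to AGPAT5, GPAT3, GPAT4, LPCAT1, LPCAT2, LPCAT4, LPGAT1 and LCLAT1, with DGAT2. The soluble class held the lipins LPIN1, LPIN2 and LPIN3 and the cytidylyl transferases PCYT1A and PCYT2. With the minimum of 20 counts these classes kept 17, 12 and 5 genes, and all 34 passed the filter on low counts.

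The IPs held 515302 to 960279 counts on genes with EMC6, 1477225 to 2248591 with EMC7 and 1335235 to 1784496 with EMC10, and the inputs 1692490 to 1835892, 2397165 to 3395114 and 2907065 to 3371471 in the same order of lines. The EMC6 libraries were the least deep of each fraction, and the rows that name no gene took 9.28% to 12.5% of their counts, against 2.76% to 5.15% in the other libraries. Each bait's own message was far more frequent in its IPs than in its inputs. EMC6 took 0.431% and 0.449% of counts in EMC6 IPs, against 0.00301% and 0.00463% in EMC6 inputs. EMC7 took 14.4% and 15.0% in EMC7 IPs, against 0.534% and 0.602% in EMC7 inputs. EMC10 took 24.6% to 26.1% in EMC10 IPs, against 0.312% to 0.393% in EMC10 inputs. The EMC6 line stood apart here too, since its bait took a far smaller share of its IPs. The share of EMC6 in EMC6 inputs overlapped the 0.00336% to 0.00424% in the inputs of the other lines, whereas EMC7 and EMC10 were higher in their own inputs than in any other input. Of 8 markers of this cell line 5 had at least 10 counts in every input (PAX2, EYA1 and NEFM did not), and markers of blood, liver and endothelium were at 0 to 3 counts. Of 3 markers of proximal tubule SLC34A1 and CUBN were at 0 in all libraries, while LRP2 had 220 to 2857 counts. For AGPAT1 42 of the 48 counted genes within 500 kb were also at 0, and for MBOAT7 27 of 33, so a level of 0 is a listing here and not a measured absence. The spans of a few members overlap that of another counted gene, and the strand setting is not given in the sources used here. Such neighbours are MTREX (5679 counts in all) over PLPP1, DRAM2 (3102) over CEPT1 and EMILIN3 (3136) over LPIN3. EMG1 (652) lies over LPCAT3, HSF1 (256) over DGAT1 and DDHD2 (210) over PLPP5. Whether exons are shared was not examined, so whether reads of these neighbours entered the counts is not known.

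Footprints of nearly all membrane enzymes rose in IP on each bait, and no soluble enzyme passed the test. The 37 enzymes took 1.03% to 1.28% of the counts in the 7 IPs, against 0.206% and 0.271% in the EMC6 inputs and 0.368% to 0.411% in the other inputs. IP was compared with input on TMM-normalised counts scaled to library size (CPM) in 1 edgeR quasi-likelihood fit over 9458 genes, with Benjamini-Hochberg adjusted p under 0.05 as the call. With the EMC6 bait 27 of 34 enzymes rose and 0 fell, against 17.6% of all genes tested risen and 9.27% fallen. With the EMC7 bait 27 rose and 0 fell, against 20.4% and 9.68% of all genes, and with the EMC10 bait 29 rose and 0 fell, against 19.9% and 13.9%. Over the mean of the 3 lines 28 rose and 0 fell, against 23.7% and 26.9%. At an unadjusted p under 0.05 the members called either way were 30, 27, 29 and 31 in these 4 comparisons, against 36.7%, 38.7%, 42.4% and 56.0% of all genes, and DESeq2 gave 0 fallen as well.

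The median log2 change of the multi-pass class was 2.62 with EMC6, 2.25 with EMC7 and 2.30 with EMC10. The LPLAT-fold class with DGAT2 had medians of 2.78, 2.20 and 2.20, and the soluble class 0.09, 0.09 and 0.24. All genes tested had medians of -0.12, -0.14 and -0.17. Of the 17 multi-pass genes 16, 17 and 17 rose with the EMC6, EMC7 and EMC10 baits, of the 12 LPLAT-fold genes 11, 10 and 12, and of the 5 soluble genes 0, 0 and 0. In each line every IP was above every input for 29 of the 34 enzymes (85.3%), against 25.1%, 29.1% and 23.0% of all genes tested with EMC6, EMC7 and EMC10. These values depend on the scaling: the median of all genes over the 3 lines was -0.19 with TMM and -1.13 with library size alone. With library size alone 26 of 34 still rose over the mean of the 3 lines, the multi-pass median was 1.44, and 4 soluble enzymes (LPIN1, LPIN2, LPIN3 and PCYT1A) fell.

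**Figure D1:**
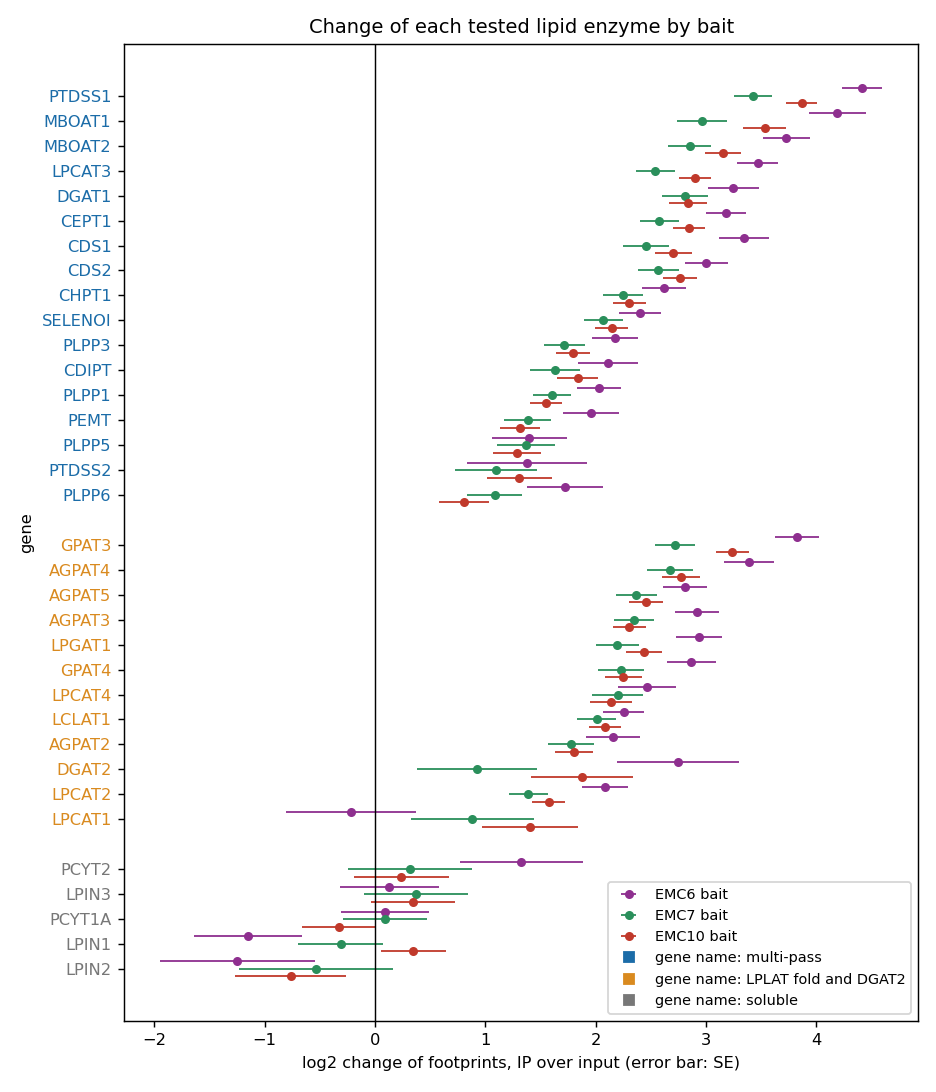
Log2 change of footprints, IP over input, for each of the 34 enzymes (points) with its standard error (bars), in the EMC6, EMC7 and EMC10 lines; genes are grouped by class and ordered by the mean of the 3 lines. PTDSS1 leads the multi-pass class and GPAT3 the LPLAT-fold class, while the 5 soluble enzymes lie between -1.25 and 1.33 and none was called.

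Acylation of glycerol 3-phosphate in the ER is done by GPAT3 and GPAT4. GPAT3 (chromosome 4, 83535587 to 83605875, GRCh38) had 535 and 575 CPM in EMC6 IPs, against 32.2 and 45.9 CPM in EMC6 inputs, 751 and 635 CPM in EMC7 IPs, against 106 and 104 CPM in EMC7 inputs, and 852, 882 and 1000.3 CPM in EMC10 IPs, against 87.6, 95.4 and 107 CPM in EMC10 inputs. Its IPs lay far above its inputs in each line without overlap, and the EMC6 inputs were the lowest. The log2 change was 3.83 ± 0.20 with the EMC6 bait, 2.72 ± 0.18 with the EMC7 bait and 3.24 ± 0.15 with the EMC10 bait, and 3.26 ± 0.10 over the mean (adjusted p = 5.59e-25), at or above 99.0% of the genes tested. GPAT4 changed by 2.45 ± 0.12 over the mean (adjusted p = 1.07e-19). The AGPATs add the next acyl chain to make phosphatidic acid. AGPAT4 had 459.9 and 605 CPM in EMC6 IPs, against 35.8 and 65.7 CPM in EMC6 inputs, 848 and 686 CPM in EMC7 IPs, against 129 and 111 CPM in EMC7 inputs, and 701, 798 and 744 CPM in EMC10 IPs, against 91.8, 122 and 114 CPM in EMC10 inputs, a change of 2.95 ± 0.12 over the mean (adjusted p = 4.58e-22). AGPAT5 had 503 and 586 CPM in EMC6 IPs, against 64.7 and 90.7 CPM in EMC6 inputs, 966 and 909 CPM in EMC7 IPs, against 176 and 186 CPM in EMC7 inputs, and 891, 839 and 1127 CPM in EMC10 IPs, against 153, 168 and 201 CPM in EMC10 inputs, a change of 2.55 ± 0.10 (adjusted p = 7.8e-22). Both were separated from input in all lines. AGPAT3 stood at 2.52 ± 0.10 and AGPAT2, the isoform lost in a form of inherited lipodystrophy, at 1.91 ± 0.12, the lowest of the 4. All 4 measured AGPATs and both GPATs rose with every bait.

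Phosphatidic acid is dephosphorylated by the soluble lipins, and related lipid phosphates by the multi-pass PLPP phosphatases. The PLPPs rose and the lipins did not. PLPP3 changed by 1.90 ± 0.11, PLPP1 by 1.73 ± 0.10 and PLPP5 by 1.35 ± 0.16 over the mean of the lines, and the 4 PLPPs, called in all lines, had a family median of 1.54. PLPP6, which acts on isoprenoid diphosphates, had 31.8 and 35.1 CPM in EMC6 IPs, against 6.51 and 13.7 CPM in EMC6 inputs, 49.6 and 44.9 CPM in EMC7 IPs, against 21.2 and 23.8 CPM in EMC7 inputs, and 37.3, 29.6 and 40.1 CPM in EMC10 IPs, against 17.6, 17.6 and 26 CPM in EMC10 inputs. Its IPs were above its inputs in each line, by the least in the EMC10 line, where the change was 0.81 ± 0.23 (adjusted p = 0.00465). That call ended without EMC10 IP replicate 3 (0.71, adjusted p = 0.0509), with scaling on ER luminal messages (0.41) and with library size alone (-0.31, with the sign turned), and the call on PLPP5 with EMC6 ended without EMC6 IP replicate 2 (1.02, adjusted p = 0.220).

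LPIN1, the lipin known from muscle and fat, had 7.48 and 5.48 CPM in EMC6 IPs, against 12.7 and 15.1 CPM in EMC6 inputs, 9.35 and 8.36 CPM in EMC7 IPs, against 10.9 and 11.3 CPM in EMC7 inputs, and 15.7, 17.9 and 7.64 CPM in EMC10 IPs, against 9.04, 10.3 and 13.1 CPM in EMC10 inputs. Its IPs lay below its inputs with EMC6 and EMC7 and overlapped them with EMC10. LPIN2 had 5.61 and 1.1 CPM in EMC6 IPs, against 6.51 and 6.84 CPM in EMC6 inputs, 2.16 and 2.09 CPM in EMC7 IPs, against 3.02 and 3.22 CPM in EMC7 inputs, and 4.82, 2.69 and 1.91 CPM in EMC10 IPs, against 5.33, 5.72 and 4.29 CPM in EMC10 inputs. Every LPIN2 IP was below every input with EMC6 and EMC7, while the EMC10 values overlapped. LPIN3 had 7.48 and 11 CPM in EMC6 IPs, against 8.32 and 9.24 CPM in EMC6 inputs, 7.19 and 4.18 CPM in EMC7 IPs, against 4.89 and 4.18 CPM in EMC7 inputs, and 8.43, 5.38 and 6.69 CPM in EMC10 IPs, against 5.1, 4.84 and 5.89 CPM in EMC10 inputs, with overlap in all 3 lines. The log2 changes over the mean of the lines were -0.37 ± 0.23 for LPIN1 (adjusted p = 0.187), -0.85 ± 0.37 for LPIN2 (adjusted p = 0.0553) and 0.28 ± 0.25 for LPIN3 (adjusted p = 0.361). LPIN2 passed the test as fallen without EMC6 IP replicate 1 (-1.26, adjusted p = 0.0223) and without EMC10 IP replicate 1 (-0.97, adjusted p = 0.0359); it rests on 144 counts in all.

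In the CDP-diacylglycerol branch, CDS1 and CDS2 make the activated lipid and CDIPT joins it to inositol. CDS1 changed by 3.34 ± 0.23 with the EMC6 bait, 2.46 ± 0.21 with the EMC7 bait and 2.70 ± 0.17 with the EMC10 bait, and CDS2 by 3.00 ± 0.19 with the EMC6 bait, 2.57 ± 0.18 with the EMC7 bait and 2.76 ± 0.15 with the EMC10 bait. CDIPT had 103 and 173 CPM in EMC6 IPs, against 22.8 and 42.4 CPM in EMC6 inputs, 358 and 297 CPM in EMC7 IPs, against 122 and 88.8 CPM in EMC7 inputs, and 273, 351 and 400.3 CPM in EMC10 IPs, against 90.2, 101 and 95.9 CPM in EMC10 inputs, and changed by 1.86 ± 0.13 over the mean (adjusted p = 1.79e-13). The 3 genes rose in every line with no overlap between IP and input, and CDIPT changed less than either synthase in each line.

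The last step of the other branch moves phosphocholine or phosphoethanolamine onto diacylglycerol. CEPT1, which uses both, changed by 2.87 ± 0.10 over the mean, CHPT1, which uses choline, by 2.39 ± 0.10, and the ethanolamine enzyme SELENOI by 2.20 ± 0.10. PEMT, which methylates phosphatidylethanolamine to phosphatidylcholine, changed by 1.55 ± 0.13. All 4 rose with each bait under TMM scaling. With library size alone PEMT lost its calls with EMC7 (0.36, adjusted p = 0.101) and EMC10 (0.19, adjusted p = 0.280). The soluble enzymes that supply the activated head groups did not pass the test. PCYT1A, which makes CDP-choline, had 9.35 and 16.4 CPM in EMC6 IPs, against 14.5 and 11.3 CPM in EMC6 inputs, 12.9 and 6.27 CPM in EMC7 IPs, against 10.9 and 7.72 CPM in EMC7 inputs, and 7.23, 8.96 and 7.64 CPM in EMC10 IPs, against 9.97, 11 and 9.11 CPM in EMC10 inputs, overlapping in each line except that all EMC10 IPs were below all EMC10 inputs. PCYT2, the ethanolamine counterpart, had 15 and 6.57 CPM in EMC6 IPs, against 3.98 and 3.76 CPM in EMC6 inputs, 3.6 and 6.27 CPM in EMC7 IPs, against 4.19 and 3.22 CPM in EMC7 inputs, and 2.41, 6.27 and 8.6 CPM in EMC10 IPs, against 4.87, 5.72 and 4.55 CPM in EMC10 inputs, with every IP above every input in the EMC6 line and overlap elsewhere. Their changes over the mean were -0.05 ± 0.22 (adjusted p = 0.875) and 0.63 ± 0.30 (adjusted p = 0.0817). PCYT2 was called higher without EMC6 IP replicate 2 (0.82, adjusted p = 0.0393) and without EMC10 IP replicate 1 (0.73, adjusted p = 0.0402).

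Phosphatidylserine is made by exchange of head groups, from phosphatidylcholine by PTDSS1 and from phosphatidylethanolamine by PTDSS2. PTDSS1 (chromosome 8, 96261902 to 96336995) was the most enriched of the 34 enzymes, with 2371 and 2450.4 CPM in EMC6 IPs, against 105 and 121 CPM in EMC6 inputs, 3405 and 3021 CPM in EMC7 IPs, against 289.9 and 309 CPM in EMC7 inputs, and 3950.5, 3677 and 4419 CPM in EMC10 IPs, against 250.1, 259 and 316 CPM in EMC10 inputs. The IPs exceeded the inputs without overlap, by fitted folds of 21.4, 10.7 and 14.6 with EMC6, EMC7 and EMC10. On the log2 scale the change was 4.42 ± 0.18 with the EMC6 bait, 3.42 ± 0.17 with the EMC7 bait and 3.87 ± 0.14 with the EMC10 bait, and 3.90 ± 0.10 over the mean (adjusted p = 5.53e-28), number 27 from the top among the 9458 genes. PTDSS2 (chromosome 11, 448268 to 491399) had 11.2 and 8.76 CPM in EMC6 IPs, against 3.62 and 3.76 CPM in EMC6 inputs, 15.8 and 13.6 CPM in EMC7 IPs, against 6.05 and 8.04 CPM in EMC7 inputs, and 14.5, 22.4 and 16.2 CPM in EMC10 IPs, against 9.97, 5.72 and 5.89 CPM in EMC10 inputs. Its IPs were above its inputs in each line, on 266 counts in all. It changed by 1.26 ± 0.25 over the mean (adjusted p = 4.6e-05) and was called with EMC10 (1.31 ± 0.30, adjusted p = 0.000552) and EMC7 (1.09 ± 0.37, adjusted p = 0.0222). With EMC6 it had 1.38 ± 0.55 (adjusted p = 0.0574), and 1.39 with the replicate number as a block (adjusted p = 0.0474). With library size alone the changes of PTDSS2 over the mean (0.31, adjusted p = 0.219), with EMC7 (0.07, adjusted p = 0.859) and with EMC10 (0.19, adjusted p = 0.543) no longer passed. The EMC6 change passed with size factors of relative log expression (1.51, adjusted p = 0.0404). The EMC7 call also ended with luminal scaling (0.34, adjusted p = 0.450), with DESeq2 (adjusted p = 0.0538) and without EMC7 IP replicate 1 (0.95, adjusted p = 0.236), EMC7 IP replicate 2 (1.18, adjusted p = 0.0532) or EMC7 input replicate 1 (0.88, adjusted p = 0.164).

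Triglyceride is completed by 2 unrelated enzymes, DGAT1 of the MBOAT fold and DGAT2, which is held by a hairpin. DGAT1 had 228 and 288 CPM in EMC6 IPs, against 22.4 and 32.2 CPM in EMC6 inputs, 436 and 373 CPM in EMC7 IPs, against 62.4 and 52.8 CPM in EMC7 inputs, and 293, 382 and 369 CPM in EMC10 IPs, against 42, 44.6 and 60.3 CPM in EMC10 inputs, and changed by 2.96 ± 0.12 over the mean (adjusted p = 2.83e-22). The IPs were separated from the inputs in all lines. DGAT2 had 13.1 and 15.3 CPM in EMC6 IPs, against 1.08 and 3.08 CPM in EMC6 inputs, 6.47 and 5.22 CPM in EMC7 IPs, against 3.02 and 3.22 CPM in EMC7 inputs, and 9.64, 7.17 and 6.69 CPM in EMC10 IPs, against 2.32, 2.42 and 1.34 CPM in EMC10 inputs, from 119 counts in all. Its IPs were also above its inputs in each line, but by less with EMC7, where the change of 0.92 ± 0.55 did not pass the test (adjusted p = 0.217). It was called with EMC6 (2.75 ± 0.56, adjusted p = 0.00019) and EMC10 (1.88 ± 0.46, adjusted p = 0.00141).

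The remodelling enzymes exchange acyl chains on finished phospholipids, and they come from both folds. Of the MBOAT fold, MBOAT1, which acts on lysophosphatidylserine and lysophosphatidylethanolamine, had 165 and 271 CPM in EMC6 IPs, against 9.4 and 14.7 CPM in EMC6 inputs, 203 and 161 CPM in EMC7 IPs, against 22.8 and 24.1 CPM in EMC7 inputs, and 139.7, 193 and 195 CPM in EMC10 IPs, against 14.8, 14.5 and 16.3 CPM in EMC10 inputs. Its change over the mean was 3.56 ± 0.13 (adjusted p = 3.23e-23), next after PTDSS1. MBOAT2 had 566 and 724 CPM in EMC6 IPs, against 37.6 and 59.9 CPM in EMC6 inputs, 751 and 755 CPM in EMC7 IPs, against 97.3 and 112 CPM in EMC7 inputs, and 771, 822 and 971 CPM in EMC10 IPs, against 83.9, 99.8 and 104 CPM in EMC10 inputs, a change of 3.24 ± 0.11 (adjusted p = 3.84e-24). LPCAT3, which puts polyunsaturated chains into phosphatidylcholine, had 1142 and 1369 CPM in EMC6 IPs, against 99.1 and 128 CPM in EMC6 inputs, 1325 and 1150.1 CPM in EMC7 IPs, against 207 and 218 CPM in EMC7 inputs, and 1497, 1398 and 1571 CPM in EMC10 IPs, against 175, 194 and 230.4 CPM in EMC10 inputs, a change of 2.97 ± 0.10 (adjusted p = 1.98e-24). IP and input were separated for all 3 in every line. The MBOAT fold, DGAT1 included, had the highest median of the multi-pass families, 3.11 over the mean of the lines, against 2.81 for the CDS pair, 2.58 for the PTDSS pair, 2.30 for the CDP-alcohol phosphotransferases and 1.54 for the PLPPs.

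Of the LPLAT fold, LPGAT1, named for its action on lysophosphatidylglycerol, changed by 2.52 ± 0.11, LPCAT4 by 2.27 ± 0.13 and LCLAT1, named for lysocardiolipin, by 2.12 ± 0.10. LPCAT2, an enzyme of platelet-activating factor synthesis, had 122 and 150.1 CPM in EMC6 IPs, against 33.3 and 31.5 CPM in EMC6 inputs, 239 and 189 CPM in EMC7 IPs, against 90 and 73.7 CPM in EMC7 inputs, and 230.0, 229 and 216 CPM in EMC10 IPs, against 70.9, 77.6 and 78.2 CPM in EMC10 inputs, a change of 1.68 ± 0.10 over the mean (adjusted p = 1.8e-16), with IP and input separated in each line. LPCAT1, which makes dipalmitoyl phosphatidylcholine in lung, had 9.35 and 3.29 CPM in EMC6 IPs, against 5.79 and 7.19 CPM in EMC6 inputs, 5.03 and 6.27 CPM in EMC7 IPs, against 2.56 and 3.54 CPM in EMC7 inputs, and 6.02, 10.8 and 5.73 CPM in EMC10 IPs, against 3.01, 3.08 and 2.41 CPM in EMC10 inputs. The EMC6 values overlapped, and all IPs were above all inputs with EMC7 and EMC10. It was called only with EMC10 (1.41 ± 0.43, adjusted p = 0.0105), where 1 IP of the 3 was the highest of all 14 libraries, and the call ended without that IP, EMC10 replicate 2 (1.03, adjusted p = 0.172). Its change over the mean, 0.69 ± 0.31 (adjusted p = 0.0646), passed the test without the EMC6 line (1.24, adjusted p = 0.00346) and without EMC6 IP replicate 2 (0.93, adjusted p = 0.0314). LPCAT1 had 139 counts in all, so its values are coarse.

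**Figure D2:**
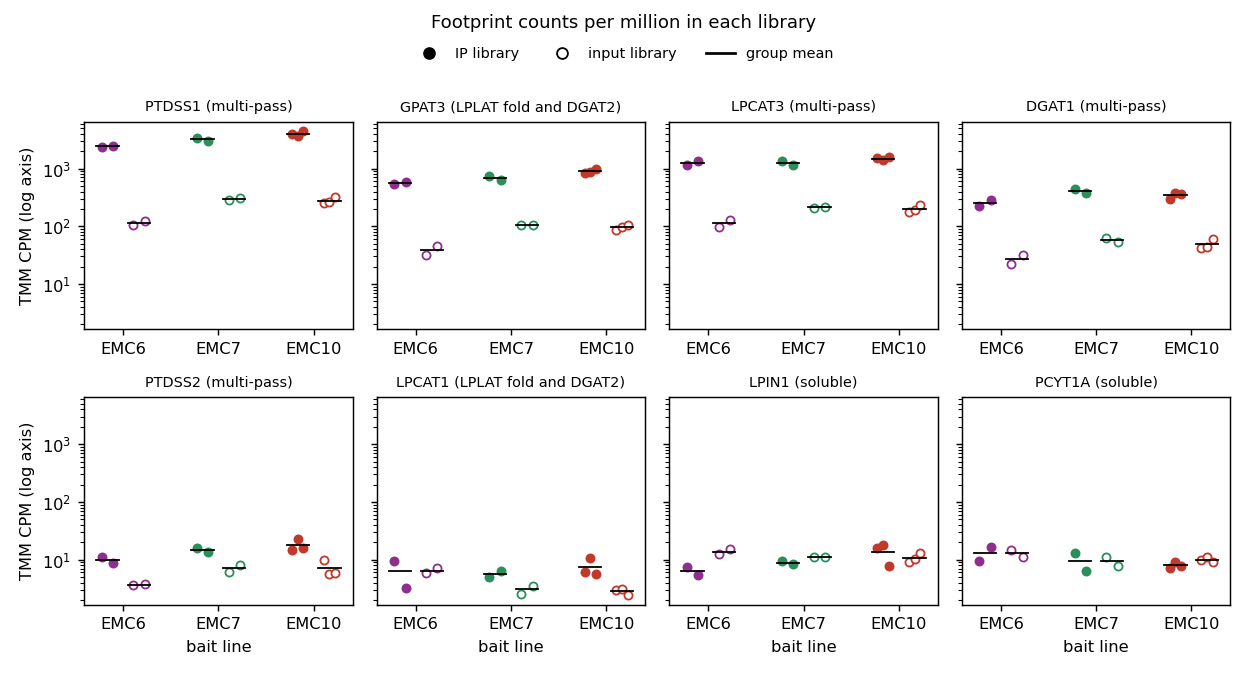
TMM-normalised CPM (log axis) of 8 enzymes in each IP library (filled) and input library (open) of the EMC6, EMC7 and EMC10 lines, with a line at each group mean. PTDSS1, GPAT3, LPCAT3 and DGAT1 stand far above their inputs in all lines, PTDSS2 by less, while LPIN1 lies below its inputs in the EMC6 and EMC7 lines and PCYT1A overlaps its inputs there.

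Whether multi-pass enzymes were enriched more than the hairpin, single-pass and soluble ones was examined pair by pair, taking the ratio of an IP to the input of the same number. These ratios were taken on log2 CPM with a small count added to each library, which draws genes of few counts toward 0. The class medians of the 7 pairs were 2.37 ± 0.24 for the multi-pass class, 2.32 ± 0.27 for the LPLAT-fold class, -0.09 ± 0.19 for the soluble class and -0.11 ± 0.03 for all genes tested (mean ± SD, n = 7). The multi-pass median exceeded the soluble median by 2.46 ± 0.23, from 2.16 to 2.82, and was above it in 7 of 7 pairs. It differed from the LPLAT-fold median by 0.05 ± 0.19, from -0.22 to 0.29, and was the higher in 5 of 7 pairs. No p is given for these medians, since the members were chosen. The soluble enzymes had only 144 to 367 counts each in all, fewer than most membrane enzymes, so class and count level go together. In the same pairs PTDSS2, DGAT2 and LPCAT1, membrane enzymes of similarly few counts, had mean ratios of 1.16, 1.59 and 0.65. The part of count level in the difference between classes was not tested. The difference from the LPLAT-fold median moved with the placing of families. With the AGPATs, GPATs, LCLAT1 and LPGAT1 counted as multi-pass, only LPCAT1, LPCAT2, LPCAT4 and DGAT2 were left. The difference was then 0.59, 1.09 and 0.58 with the EMC6, EMC7 and EMC10 baits, against -0.16, 0.05 and 0.11 as grouped here. Of those left, DGAT2 and LPCAT1 had only 119 and 139 counts in all, and neither passed the test with EMC7. The regrouped values thus rest in part on genes of few counts.

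**Figure D3:**
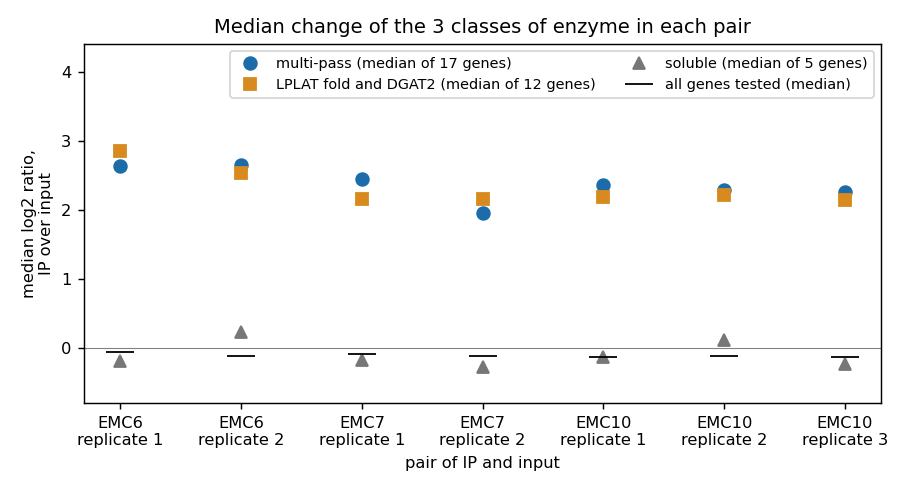
Median log2 ratio of IP over input for the 17 multi-pass, 12 LPLAT-fold and 5 soluble enzymes, and for all genes tested, in each of the 7 pairs of libraries. Both membrane classes lie between 1.96 and 2.86 in each pair and the soluble class between -0.27 and 0.23.

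Enzymes that catalyse the same kind of reaction were set side by side in the 7 pairs, and the signs of their differences were flipped in an exact permutation test (two-sided, smallest possible p = 0.015625, adjusted over 8 comparisons). PTDSS1 exceeded PTDSS2 by 2.73 ± 0.55 (SD, n = 7), LPCAT3 exceeded LPCAT1 by 2.31 ± 1.04, and DGAT1 exceeded DGAT2 by 1.33 ± 0.64. CEPT1 exceeded CHPT1 by 0.50 ± 0.18. In 3 comparisons added after the values were seen, and so with their direction known, LPCAT3 exceeded LPCAT2 by 1.31 ± 0.20 and LPCAT4 by 0.77 ± 0.39, and GPAT3 exceeded GPAT4 by 0.81 ± 0.28. With the small count added to each library, these 7 differences had the same sign in 7 of 7 pairs (exact permutation p = 0.015625, adjusted p = 0.0179). The sign-flip test was itself chosen after the values were seen, and its adjustment includes the 3 added comparisons. These p-values are thus a description and no test, above all for those 3. CDS1 and CDS2 differed by 0.02 ± 0.24, from -0.27 to 0.39, with 4 of 7 pairs above 0 (exact permutation p = 0.78125). The lipins and PLPPs, which remove phosphate from lipids, had medians of -0.37 and 1.54 when the lines were averaged. The pairs of the 3 lines were pooled here, and the lower partner of the first 3 comparisons had 119 to 266 counts in all. The added count draws the ratios of such genes toward 0. In replicate 1 of EMC6, DGAT2 had 13.1 CPM in IP against 1.08 CPM in input, and DGAT1 228 against 22.4 CPM. On CPM alone the ratio of DGAT2 was thus the larger there, and the 7 of 7 pairs for DGAT1 rest on the added count.

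The enzymes kept a similar order on the 3 baits. Across the 34 enzymes the changes with EMC6 correlated with those of EMC7 at r = 0.940 (Spearman's rho 0.953) and with those of EMC10 at r = 0.927 (rho 0.976), and EMC7 with EMC10 at r = 0.968 (rho 0.970). This is a description over genes that share families and class, in lines with no library in common. The mean log2 CPM in input and the mean change correlated at r = 0.70 over the 34 and 0.55 over the 29 membrane enzymes, with input counts entering both measures.

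The changes with EMC6 were the largest for most enzymes: 29 of 34 were higher with EMC6 than with EMC7, and 30 of 34 higher than with EMC10. The median differences of the 34 were 0.47 and 0.42, where those of all genes tested were 0.015 and 0.056. In the test of the difference, GPAT3 was higher with EMC6 than with EMC7 by 1.11 ± 0.26 (adjusted p = 0.0335) and PTDSS1 by 0.99 ± 0.23 (adjusted p = 0.0305), where 0.19% of all genes were called higher and 0.328% lower. No enzyme was called for EMC6 against EMC10 (0.0634% of all genes higher, 0.0106% lower) or EMC7 against EMC10 (0.148% and 0.0106%). At an unadjusted p under 0.05 there were 13, 12 and 2 of the 34 enzymes in the 3 differences, against 8.96%, 6.24% and 6.57% of all genes. The last count was thus near the share of all genes. DESeq2 called 5, 0 and 0. Both calls ended with size factors of relative log expression (adjusted p = 0.0526 for GPAT3 and 0.0519 for PTDSS1), and without any 1 of several libraries, among them each EMC7 IP and each EMC7 input.

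The labels give IP and input of a line the same number, and with that number as a block more differences passed. In the blocked fit 14 enzymes were higher with EMC6 than with EMC7, against 2.82% of all genes called higher and 3.49% lower. They were 7 of the multi-pass class (PTDSS1, LPCAT3, MBOAT2, CEPT1, MBOAT1, CDS1 and CDS2) and 7 of the LPLAT fold (GPAT3, AGPAT4, LPGAT1, GPAT4, LPCAT2, AGPAT3 and AGPAT5), led by MBOAT1 at 1.19 ± 0.26 (adjusted p = 0.000184), GPAT3 at 1.10 ± 0.16 (adjusted p = 4.79e-10) and PTDSS1 at 0.99 ± 0.12 (adjusted p = 9.53e-15). Against EMC10, 7 were higher with EMC6 (1.88% of all genes higher, 0.349% lower), from 0.55 ± 0.11 for PTDSS1 to 0.62 ± 0.14 for AGPAT4. For EMC7 against EMC10, PTDSS1, GPAT3 and LPCAT3 were lower with EMC7 (3.68% of all genes higher, 0.698% lower), with differences of -0.45, -0.51 and -0.36. No soluble enzyme was called in any of these. The p-values of the blocked fit lie close to those of a normal distribution at the printed standard errors. They thus rest on a spread shared across genes and do not measure the spread between the pairs of each enzyme. For GPAT3 and PTDSS1 the standard errors were also smaller than without the block. The EMC6 line differed from the others in depth, in counts outside genes and in its knockout background, and the part of each in these differences cannot be told apart.

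The inputs and the IPs of the EMC6 line were also compared with those of the other lines. In such bulk libraries of microsomes, fewer cells that make an enzyme, less of its message per cell and a smaller share of ER messages in the preparation cannot be told apart. In the EMC6 inputs 27 of the 34 enzymes were lower and 2 higher, against 21.8% of all genes lower and 15.3% higher. All 17 multi-pass enzymes were lower, with a median of -0.93, as were 10 of 12 LPLAT-fold enzymes, while the soluble class had a median of 0.39. CDIPT was the lowest, at -1.62 ± 0.22 (adjusted p = 8.98e-07), then GPAT3 at -1.36 ± 0.17 and PTDSS1 at -1.35 ± 0.15. The 2 that were higher were LPCAT1, at 1.14 ± 0.36 (adjusted p = 0.011), and LPIN3, at 0.83 ± 0.29 (adjusted p = 0.0199). Both EMC6 inputs were below all 5 other inputs for 26 of 34 enzymes (76.5%), against 25.0% of all genes tested.

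The sign of these differences rests on the scaling, which shifts all genes together. With library size alone 23 enzymes were lower and 5 higher in the EMC6 inputs, where the median of all genes was 0.37. Relative to messages of ER luminal proteins 0 were lower and 8 higher, where it was 1.21, with medians of 0.20 for the multi-pass, 0.01 for the LPLAT-fold and 1.54 for the soluble class. Set against all genes, the median of the 34 lay at -0.94 with TMM, -0.94 with library size and -0.94 with luminal scaling. A change of scaling shifts all genes alike, so this sameness is built in and is no check of the result. Between the IPs, 14 of 34 enzymes were lower with EMC6 than with the other baits and 0 higher (16.2% of all genes lower, 7.16% higher), led by CDIPT at -1.24 ± 0.22 and AGPAT2 at -0.98 ± 0.20. The calls became 1 lower and 11 higher with library size alone and 0 lower and 28 higher relative to luminal messages, settings in which the medians of all genes were 0.68 and 1.40. The medians of the 34 were -0.45 with TMM, 0.21 with library size and 0.92 with luminal scaling. Relative to all genes they were -0.48, -0.47 and -0.48, as a shift common to all genes requires. The turned sign is thus that of all genes. For EMC6 against EMC7 the multi-pass and LPLAT-fold medians, set against all genes, were 0.46 to 0.60 under TMM, relative log expression, library size and luminal scaling. That likeness between scalings is likewise built in. The comparison of IPs was chosen after the data were seen, and the line, its knockout and its preparation cannot be told apart.

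**Figure D4:**
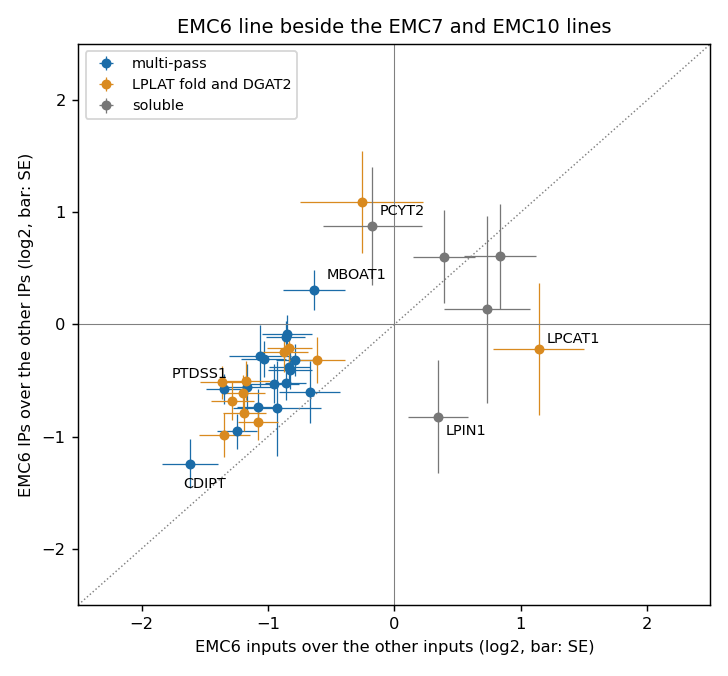
Log2 difference of each of the 34 enzymes between the EMC6 inputs and the other inputs (x axis) and between the EMC6 IPs and the other IPs (y axis), TMM scaling, bars are standard errors and the dotted line marks equality. Most membrane enzymes lie left of 0 and above the dotted line, lower in both fractions of the EMC6 line but by less in IP.

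The other genes of glycerolipid metabolism were taken from a list of 42, of which 6 were at 0 in all libraries and 27 were tested; 9, 11 and 14 rose and 0, 1 and 2 fell with EMC6, EMC7 and EMC10, and 16 rose and 1 fell over the mean of the lines. Of all genes tested 17.6%, 20.4%, 19.9% and 23.7% rose in these 4 comparisons and 9.27%, 9.68%, 13.9% and 26.9% fell. The median of the 27 over the mean was 0.69, where all genes had -0.19. The ones that rose most were PNPLA6, a phospholipase of the ER also called neuropathy target esterase, at 2.39 ± 0.12, the acyl-CoA synthetases ACSL6 and ACSL3 at 2.22 ± 0.16 and 1.76 ± 0.09, and seipin (BSCL2), which shapes nascent lipid droplets, at 1.95 ± 0.15. PLPP4 stood at 1.79 ± 0.45 on only 90 counts in all, and of the single baits it was called with EMC10 alone. TMEM68 was at 1.75 ± 0.14, FITM2, a lipid-droplet protein of the ER, at 1.47 ± 0.12, and CTDNEP1, the phosphatase that acts on lipins, at 1.28 ± 0.12. The mitochondrial cardiolipin synthase CRLS1 was at 1.12 ± 0.25, on 261 counts, and CNEP1R1, the partner of CTDNEP1, at 0.97 ± 0.32, on 175 counts. Of the single baits CRLS1 was called with EMC7 alone and CNEP1R1 with EMC10 alone. PITPNB, a soluble transfer protein for phosphatidylinositol, fell by 0.38 over the mean. PITPNB and the choline kinase CHKA fell with EMC10, and the lipid-droplet coat protein PLIN3 fell with EMC7.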

How the data were processed

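The authors deposited whole-number counts of ribosome footprints per gene symbol for each of 14 libraries, not normalized. Per the submitters' processing notes, the tools were Cutadapt 4.1, Bowtie2 2.2.6 and TopHat2 2.1.0, with build hg38. The sources used here do not give the annotation, the strand setting or any removal of duplicates. Duplicated fragments may therefore remain and raise the apparent precision. The 5 rows that name no gene, with 2.76% to 12.5% of all counts, were kept out of library sizes and tests. Depth limits low genes: LPCAT1, DGAT2, LPIN2, PCYT2 and LPIN3 had 119 to 198 counts in all.

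A single model over the 14 libraries was fitted with edgeR 4.0.16 (R 4.3.3, limma 3.58.1): a mean per line and fraction, TMM, filterByExpr (9458 genes) and a robust quasi-likelihood test, Benjamini-Hochberg adjusted over all genes. The steps were tested on simulated data. Positions are from the RefSeq table of GRCh38, which matched 18968 of the 19440 symbols. Alternatives were DESeq2 1.42.0, other scalings and filters, the replicate number as a block, 1 line alone, other classes, and each library left out.

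The labels do not say that replicates are separate cultures, and p-values thus cover the spread among these libraries, which can be technical. Replicates differed by more than sampling noise (chi-square over degrees of freedom 1.91 to 7.74). The EMC6 line had the highest values, 7.74 between its inputs and 3.93 between its IPs, against 1.91 to 3.04 in the other groups. Since the fit shares 1 estimate of the spread over all groups, p-values of comparisons with the EMC6 line may be too small. IP and input of a line carry the same batch number in the labels, and each IP came from its input, which pairs them. Deviations of same-numbered libraries from their group means correlated at 0.27 for EMC6 but only 0.07 for EMC7, and for the 3 EMC10 pairs between 0.04 and 0.10. The pairing therefore rests on the labels.

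The members, the classes and the lists were chosen with earlier results of these data known. Given in every library were, per class, the 3 with the largest and the 2 with the smallest change over the mean of the lines. Members called in only 1 or 2 lines or between baits in the main fit were given too, and LPCAT3, DGAT1 and CDIPT were added. Other enzymes of 1 reaction, among them CEPT1, CHPT1, CDS1 and CDS2, were compared without printing their values in each library. Other pathway genes were named if called over the mean, at most 10 by size, and those that fell. The sign-flip test, the comparison of EMC6 IPs with other IPs and the mean without the EMC6 line were chosen after seeing the data. Footprint density per coding length and the change by predicted membrane segments were planned but not run, since protein sequences were not used here.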

Additional observations from a re-analysis of the deposited data

Results flagged for a closer look

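The change of GPAT3 was larger with the EMC6 bait than with the EMC7 bait by 1.11 on the log2 scale, and that of PTDSS1 by 0.99. Both were singled out because the difference between the baits itself passed edgeR's test (adjusted p = 0.0335 and 0.0305). In the single pairs GPAT3 had log2 ratios of 4.02 and 3.62 with EMC6, against 2.81 and 2.60 with EMC7. PTDSS1 had 4.49 and 4.33 with EMC6, against 3.55 and 3.29 with EMC7. Both genes were picked from these same libraries, so the lack of overlap is no further support. Both calls in edgeR's test ended with size factors of relative log expression (adjusted p = 0.0526 for GPAT3 and 0.0519 for PTDSS1). The EMC6 inputs of both genes were below all other inputs under TMM scaling, and the part of this in the differences was not tested.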

How the results depend on the processing

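The counts of risen members kept within 1.5 times under every alternative. Under library size alone 2, 3, 4 and 4 members fell with EMC6, EMC7, EMC10 and the mean of the lines, and with scaling on ER luminal messages 1 fell with EMC6, 1 with EMC7 and 3 over the mean; leaving out 1 library gave 0 to 1 over the mean. Library size alone, which lowers all IP changes, reversed PCYT1A with EMC7 (-0.93, adjusted p = 0.0248), LPIN1, PCYT2 and PLPP6 with EMC10 (-0.76, -0.87 and -0.31) and LPIN3 over the mean (-0.66), and ended calls on PLPP5, PLPP6, PEMT, PTDSS2, LPCAT1, LPCAT2 and DGAT2. The multi-pass minus LPLAT-fold difference was 0.59, 1.09, 0.58 and 0.76 (mean of the lines) with only LPCAT1, LPCAT2, LPCAT4 and DGAT2 left in the LPLAT-fold class. Of these, LPCAT1 and DGAT2 had few counts. As first grouped, the difference was 0.028 in the EMC10 line fitted alone. Leaving out 1 library it ran from -0.36 to 0.20 with EMC6, from -0.15 to 0.24 with EMC7, from 0.036 to 0.16 with EMC10 and from -0.07 to 0.13 over the mean. Multi-pass minus soluble was 3.15 in the EMC6 line alone, and without 1 library 2.43 to 2.79 with EMC6, 1.82 to 2.52 with EMC7, 2.01 to 2.38 with EMC10 and 2.33 to 2.59 over the mean. Members differing between EMC6 and EMC7 numbered 0 with size factors of relative log expression, 10 with library size, 8 with luminal scaling, 5 with DESeq2 and 0 to 11 without 1 library. Between EMC6 and EMC10 they numbered 18 with library size and 0 to 9 without 1 library. In the EMC6 inputs 8 differed with luminal scaling and 23 to 30 without 1 library. The replicate block rests on the pairing in the labels and on a spread shared across genes. With it 14, 7 and 3 members differed between EMC6 and EMC7, EMC6 and EMC10, and EMC7 and EMC10. Of the calls of IP against input on single members the block changed only that on PTDSS2 with EMC6. The block leaves no comparison of inputs, and the alternatives planned for predicted membrane segments and footprint density were not run. Where no construction shows it, the cause was not tested.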

Other observations

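Among the other genes of the pathway, those of mitochondria were grouped here after their values were seen, and whether they differ from the ER enzymes was not tested. Beside CRLS1, given above at 1.12, GPAM, the mitochondrial glycerol-3-phosphate acyltransferase, was at 0.86 ± 0.17 over the mean of the lines, PTPMT1, the phosphatase of cardiolipin synthesis, at 0.49 ± 0.12, and PISD, which makes phosphatidylethanolamine from phosphatidylserine, at 0.43 ± 0.15, and all 3 passed the test. PGS1 (0.28 ± 0.18), AGK (-0.21 ± 0.13) and TAMM41 (-0.43 ± 0.36) did not. PNPLA2, the triglyceride lipase of lipid droplets, was at 0.90 ± 0.12 and passed.

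PLPP2, below the minimum of 20 counts, had 3 and 5 counts in EMC6 IPs and 1 and 6 in EMC6 inputs. The EMC7 IPs had 0 and 0 counts of it and the EMC7 inputs 0 and 2. The EMC10 IPs had 1, 0 and 0, and it was listed at 0 in all 3 EMC10 inputs.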
